A study of Mus musculus with 36 samples.

Results

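The genes described here encode enzymes that write or erase methyl groups on histone tails, subunits of the SWI/SNF chromatin remodellers, and relatives of both that share a name. Members were taken by symbol, as mouse genes called Kmt, Kdm2 to Kdm8, Setd, Smarc or Arid1 to Arid5 followed by their family number or letter, without pseudogene or antisense symbols. They also had to have at least 10 counts per library on average. The names of 59 genes matched, 3 of them carried a pseudogene or antisense suffix, and 54 of the remaining 56 passed the minimum, out of 46603 genes in the count tables. The 2 genes below the minimum were Kdm4d, with 5.06 counts per library, and Kdm4dl, with 1.67. Just inside it were Arid3c, with 49.8 counts, and Arid5a, with 128 counts. All 54 members also passed the filter on low counts of every test.

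Methylation of lysine 4 on histone H3 (H3K4) marks promoters and enhancers in use, and methylation of H3 lysine 36 marks transcribed gene bodies, whereas methylation of H3 lysine 9, H3 lysine 27 and histone H4 lysine 20 accompanies silent or compacted chromatin. Each mark is set by SET domain methyltransferases and removed by Jumonji domain demethylases. SWI/SNF complexes, called BAF and PBAF in mammals, use an ATPase of the SNF2 family to slide or evict nucleosomes, and change their subunits as neural progenitors become neurons. Loss of 1 copy of many of these genes in people is associated with intellectual disability or autism, as is loss of 1 copy of CHD8, itself an SNF2-type remodeller.

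RNA was sequenced from the cortex of C57Bl/6J mouse embryos, to ask how stepwise loss of Chd8 alters transcription. For the earlier stage the paper names the tissue as telencephalic vesicles. At embryonic day 12.5 (E12.5) each of 4 genotypes had 3 libraries of 1 embryo each: Chd8+/+ (wild type), Chd8+/- (1 null allele), Chd8neo/neo and Chd8neo/-. The neo allele carries a selection cassette in an intron, which lowers but does not abolish its expression, and Chd8neo/- joins it to a null allele. At E10.5 each of 2 groups had 3 libraries, each from RNA of 2 embryos: cKO, in which sox1-Cre deletes both floxed alleles (Chd8f/f) in the early neural lineage, and Ctrl, which the labels describe as mixed Chd8f/f and Chd8 f/+ embryos without saying which pool holds which. Cells outside the Sox1 lineage, such as blood, vessel and meningeal cells, keep their Chd8 in the cKO. The 6 replicate sets were compared at the level of libraries, so that p-values measure the spread between embryos at E12.5 and between pools at E10.5.

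Library totals ran from 38774591 to 61051667 counts at E12.5 and from 49632937 to 68488879 at E10.5. Chd8 itself spanned 235 to 239 CPM (counts per 1000000 counts of the library, after scaling) in Chd8+/+, 165 to 170 CPM in Chd8+/-, 203 to 213 CPM in Chd8neo/neo and 142 to 158 CPM in Chd8neo/-, and 160 to 184 CPM in Ctrl against 116 to 125 CPM in cKO. Chd8neo/neo libraries therefore held more Chd8 counts than Chd8+/- libraries, and a gene's count sums all exons, so it is no measure of full-length transcript. Embryo sex was unequal: transcripts of 3 Y-linked genes that are not members (Ddx3y, Eif2s3y and Uty) were near 0 in 1 Chd8+/+ library, 1 Chd8+/- library, 2 Chd8neo/neo libraries and 2 Ctrl pools, and all 3 Chd8neo/- libraries were from males. The 9 neuronal markers summed to between 2901 and 3396 CPM in Chd8neo/neo, below the 3524 to 4205 CPM of Chd8+/+, with Dcx and Map2 called lower. Hbb-bh1, an embryonic globin of red blood cells, was at 341 to 569 CPM in Chd8neo/-, above the 117 to 169 CPM of Chd8+/+, and was called higher, whereas the adult globin Hba-a2 was at 18.4 to 138 CPM in Chd8neo/- against 139 to 161 CPM in Chd8+/+ and did not pass. The 6 mesenchymal and meningeal markers summed to between 755 and 950 CPM in cKO against 612 to 698 CPM in Ctrl, with Col3a1 and Col1a2 called higher. The part of these shifts in the members' results was not tested, and in tissue RNA fewer cells of a type and less RNA per cell cannot be told apart.

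The promoters of 4 members that recur below are shown because they are very unlike each other in base composition. Each line gives the 250 bases upstream of the RefSeq start (build GRCm38.p6), 5′ to 3′ on the gene's strand, with capitals for matches to any of 5 motifs on either strand: GGGCGG (Sp1-type GC box), CCGGAAG (ETS core), CCAAT, the NRF1 core and TATAAA.
Kdm8: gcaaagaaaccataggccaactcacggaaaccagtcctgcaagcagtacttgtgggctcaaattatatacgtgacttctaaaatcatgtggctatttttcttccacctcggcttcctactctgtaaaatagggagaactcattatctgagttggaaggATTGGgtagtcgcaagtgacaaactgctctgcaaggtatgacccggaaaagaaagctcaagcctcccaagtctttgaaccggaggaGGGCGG
Kdm5b: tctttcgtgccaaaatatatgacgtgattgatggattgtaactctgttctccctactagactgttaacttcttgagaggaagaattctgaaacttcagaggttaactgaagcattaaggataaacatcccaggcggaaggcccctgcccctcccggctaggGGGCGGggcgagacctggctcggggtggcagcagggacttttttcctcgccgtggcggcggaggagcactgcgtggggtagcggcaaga
Kmt2c: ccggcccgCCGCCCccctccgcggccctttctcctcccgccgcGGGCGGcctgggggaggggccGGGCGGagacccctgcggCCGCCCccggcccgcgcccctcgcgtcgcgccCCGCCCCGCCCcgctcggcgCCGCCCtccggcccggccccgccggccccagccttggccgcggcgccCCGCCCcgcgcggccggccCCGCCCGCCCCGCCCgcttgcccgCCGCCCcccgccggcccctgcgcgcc
Smarca4: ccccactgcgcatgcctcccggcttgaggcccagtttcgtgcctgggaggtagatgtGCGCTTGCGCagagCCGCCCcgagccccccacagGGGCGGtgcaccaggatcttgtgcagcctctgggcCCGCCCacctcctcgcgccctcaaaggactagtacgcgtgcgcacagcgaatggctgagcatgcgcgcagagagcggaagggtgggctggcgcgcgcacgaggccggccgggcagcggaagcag

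These windows lie at chr7:125444370-125444619 on the plus strand for Kdm8, chr1:134559928-134560177 on the plus strand for Kdm5b, chr5:25498784-25499033 on the minus strand for Kmt2c and chr9:21615919-21616168 on the plus strand for Smarca4. Their GC content was 46.8%, 54.4%, 91.6% and 70.8% in that order. The Kmt2c window held 12 GC boxes, the Smarca4 window 3, and those of Kdm8 and Kdm5b 1 each. RefSeq promoter windows were at hand for 42 of the 54 members, with 55 starts between them, and for 32851 starts in all. The median GC content was 63.6% for the members' windows and 52.4% for all. A GC box stood in 37 of the 55 (67.3%) against 32.7% of all windows, the ETS core in 12.7% against 6.91%, the NRF1 core in 9.09% against 3.74%, CCAAT in 32.7% against 33.9% and TATAAA in 5.45% against 12.4%. Such matches describe letters and do not show that a factor binds.

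Levels in the wild-type cortex at E12.5 spanned a wide range. On the scale of CPM per kilobase of exon, the highest member was Smarca4 (Brg1), the main BAF ATPase of progenitors, at 107 ± 9.95 (SD, n = 3), followed by the core scaffold subunit Smarcc2 (BAF170) at 101 ± 2.90, which did not differ from it beyond their SDs. Smarcd1 (BAF60A) at 79.4 ± 6.48 lay below both, and Smarcc1 (BAF155) at 55.7 ± 4.02 and Smarce1 (BAF57) at 53.0 ± 1.43 came next and did not differ from each other beyond theirs. The highest histone enzyme was the H3K9 demethylase Kdm3a at 42.5 ± 1.89. At the low end stood Setd4, a SET domain methyltransferase, at 1.87 ± 0.133, the DNA-binding protein Arid3c at 0.437 ± 0.100 and Arid5a at 0.208 ± 0.0185 on the same scale.

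Between the control groups of the stages, 36 of the 54 members lay within 1.5 times of each other on the CPM scale. The members higher at E12.5 by more than 1.5 times numbered 14, and included Smarcc2 at 507 CPM in Chd8+/+ against 200 CPM in Ctrl (2.54 times), Smarcd3 (BAF60C), the paralogue of Smarcd1 found in neuronal BAF, at 46.4 against 19.2 CPM (2.42 times), the H3K27 demethylase Kdm6b at 181 against 79.2 CPM (2.29 times), the H3K4 methyltransferase Kmt2c at 183 against 85.1 CPM (2.16 times) and Kmt2e at 234 against 115 CPM (2.04 times). The Y-linked Kdm5d is among the 14, and its mean depends on how many libraries came from males. The members higher at E10.5 by that margin numbered 4. They were Arid3a (2.39 times) and Arid3b (2.03 times), DNA-binding proteins of the ARID family, the Jumonji domain protein Kdm8 (1.63 times) and the methyltransferase Setd6 (1.62 times). Stage, count table, sequencing batch and dissection differ together here, so no test was made. Each count table was scaled by itself and the shares of all genes beyond this margin were not counted, so these counts have no reference.

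**Figure D1:**
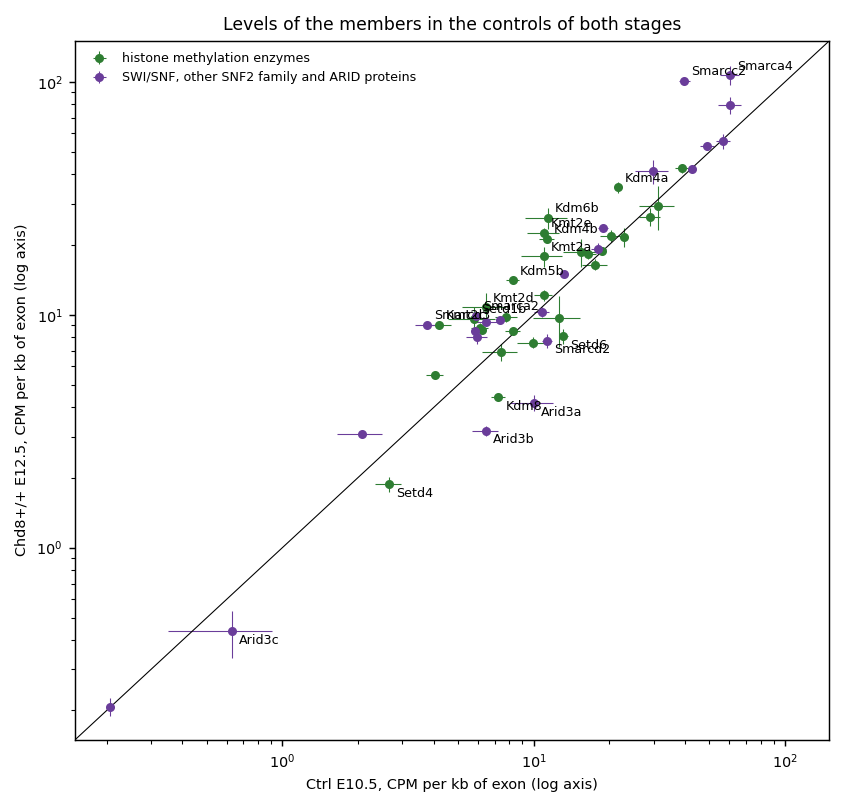
Mean level of 53 members (Kdm5d is left out) in CPM per kilobase of exon in Ctrl at E10.5 (x axis, log scale) and in Chd8+/+ at E12.5 (y axis, log scale), with SD bars (n = 3 each) and the line of equal level. Smarcc2, Kdm6b and Kmt2c lie above the line and Arid3a, Arid3b and Kdm8 below it.

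In Chd8+/- cortex no member was called against Chd8+/+ by edgeR's quasi-likelihood test (Benjamini-Hochberg adjusted p below 0.05 among all genes tested), where 0.0159% of the 18810 genes tested were called higher and 0.00532% lower. No member had an unadjusted p under 0.05 either, and DESeq2 called 0 members. The median log2 fold change of the members was -0.01 against 0.00 for all genes, and their median difference in size was 0.04. Among the H3K4 methyltransferases the values ran from 0.00 (Setd1a) to -0.14 (Kmt2d), both not called. The 3 comparisons with Chd8+/+ use the same 3 Chd8+/+ libraries, so they are not independent of each other, and the same holds for the comparisons that share the Chd8+/- or Chd8neo/neo libraries.

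In Chd8neo/neo cortex 1 member rose and 4 fell, against 3.71% of all genes called higher and 4.45% called lower. The share of members called lower was 7.41% and of members called higher 1.85%, and the median log2 fold change was -0.01 for members and 0.01 for all genes. The 4 that fell were the H3K4 demethylase Kdm5b, the H3K4 methyltransferase Kmt2c (MLL3), which acts at enhancers, Kmt2e (MLL5), a SET domain protein without known methyltransferase activity, and Smarca1 (Snf2l), the ISWI-type remodeller ATPase of neurons. The 1 that rose was Kdm8 (Jmjd5), a Jumonji domain hydroxylase first described as an H3K36 demethylase. None of the 12 members that are BAF or PBAF subunits passed edgeR's test in this genotype, while DESeq2 also called the ATPase Smarca2 lower. In the same libraries the 9 neuronal markers had a median log2 fold change of -0.32 with 2 called lower and the 8 markers of radial glia and progenitors one of 0.14 with 2 called higher (Pax6 and Sox2), and their part in the members' values was not tested.

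Kdm5b stood at 231, 226 and 242 CPM in Chd8+/+ and at 190, 201 and 197 CPM in Chd8neo/neo (log2 fold change -0.25 ± 0.04 SE, adjusted p = 0.00496). Kmt2e stood at 237, 221 and 245 CPM in Chd8+/+ and at 199, 201 and 199 CPM in Chd8neo/neo (-0.23 ± 0.05, adjusted p = 0.0106). In both genes each Chd8neo/neo library was below each Chd8+/+ library, and both calls held when any 1 of the 6 libraries was left out. Kmt2c was at 184, 179 and 188 CPM in Chd8+/+ and 164, 152 and 157 CPM in Chd8neo/neo (-0.22 ± 0.05, adjusted p = 0.0134), also without overlap, and held in 4 of the 6.

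Kdm8 is a low-level gene that was at 11.04, 10.3 and 10.3 CPM in Chd8+/+ and at 13.8, 14.4 and 11.6 CPM in Chd8neo/neo (0.33 ± 0.09, adjusted p = 0.0335). Its 3 Chd8neo/neo libraries were all above the Chd8+/+ libraries, but the call held in only 2 of the 6 leave-one-out fits. Smarca1, which lies on the X chromosome, was at 45.3, 52.0 and 49.8 CPM in Chd8+/+ and at 37.4, 39.4 and 41.6 CPM in Chd8neo/neo (-0.31 ± 0.07, adjusted p = 0.0200), likewise without overlap and likewise held in 2 of the 6. The largest difference in this comparison outside the Y-linked Kdm5d was that of Arid3c, at 0.979, 0.684 and 0.659 CPM in Chd8+/+ and 1.28, 1.12 and 1.19 CPM in Chd8neo/neo, which did not pass (0.61 ± 0.23, adjusted p = 0.105).

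The set of calls in Chd8neo/neo depended on how the libraries were modelled. With trends in exon length and GC content removed from each library, none of the 5 calls remained and 3 others were made, all higher (Kdm2b 0.16, Kdm3b 0.21, Setd5 0.21), and over all genes the share of calls that were higher moved from 45.4% to 59.7% (it was 56.9% without Chd8+/+ replicate 2). Leaving out Chd8neo/neo replicate 3, the only male of that group, gave 4 members higher and 6 lower. Over all genes that fit called 999 higher and 1606 lower, against 697 and 837 with every library. Leaving out Chd8+/+ replicate 1 gave 2 members higher and 5 lower, with 553 and 727 of all genes. Without Chd8+/+ replicate 3 the counts were 1 higher (Smarca4) and 2 lower, with 419 and 381 of all genes, and Kdm8 was not called. Kdm8 was also lost, leaving 0 members higher, without Chd8+/+ replicate 2, Chd8neo/neo replicate 1 or 2, or Chd8neo/- replicate 3. Those fits called from 196 to 506 of all genes higher. With males alone, which leaves 1 Chd8neo/neo library, edgeR called 0 members in either direction (7 had an unadjusted p under 0.05).

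**Figure D2:**
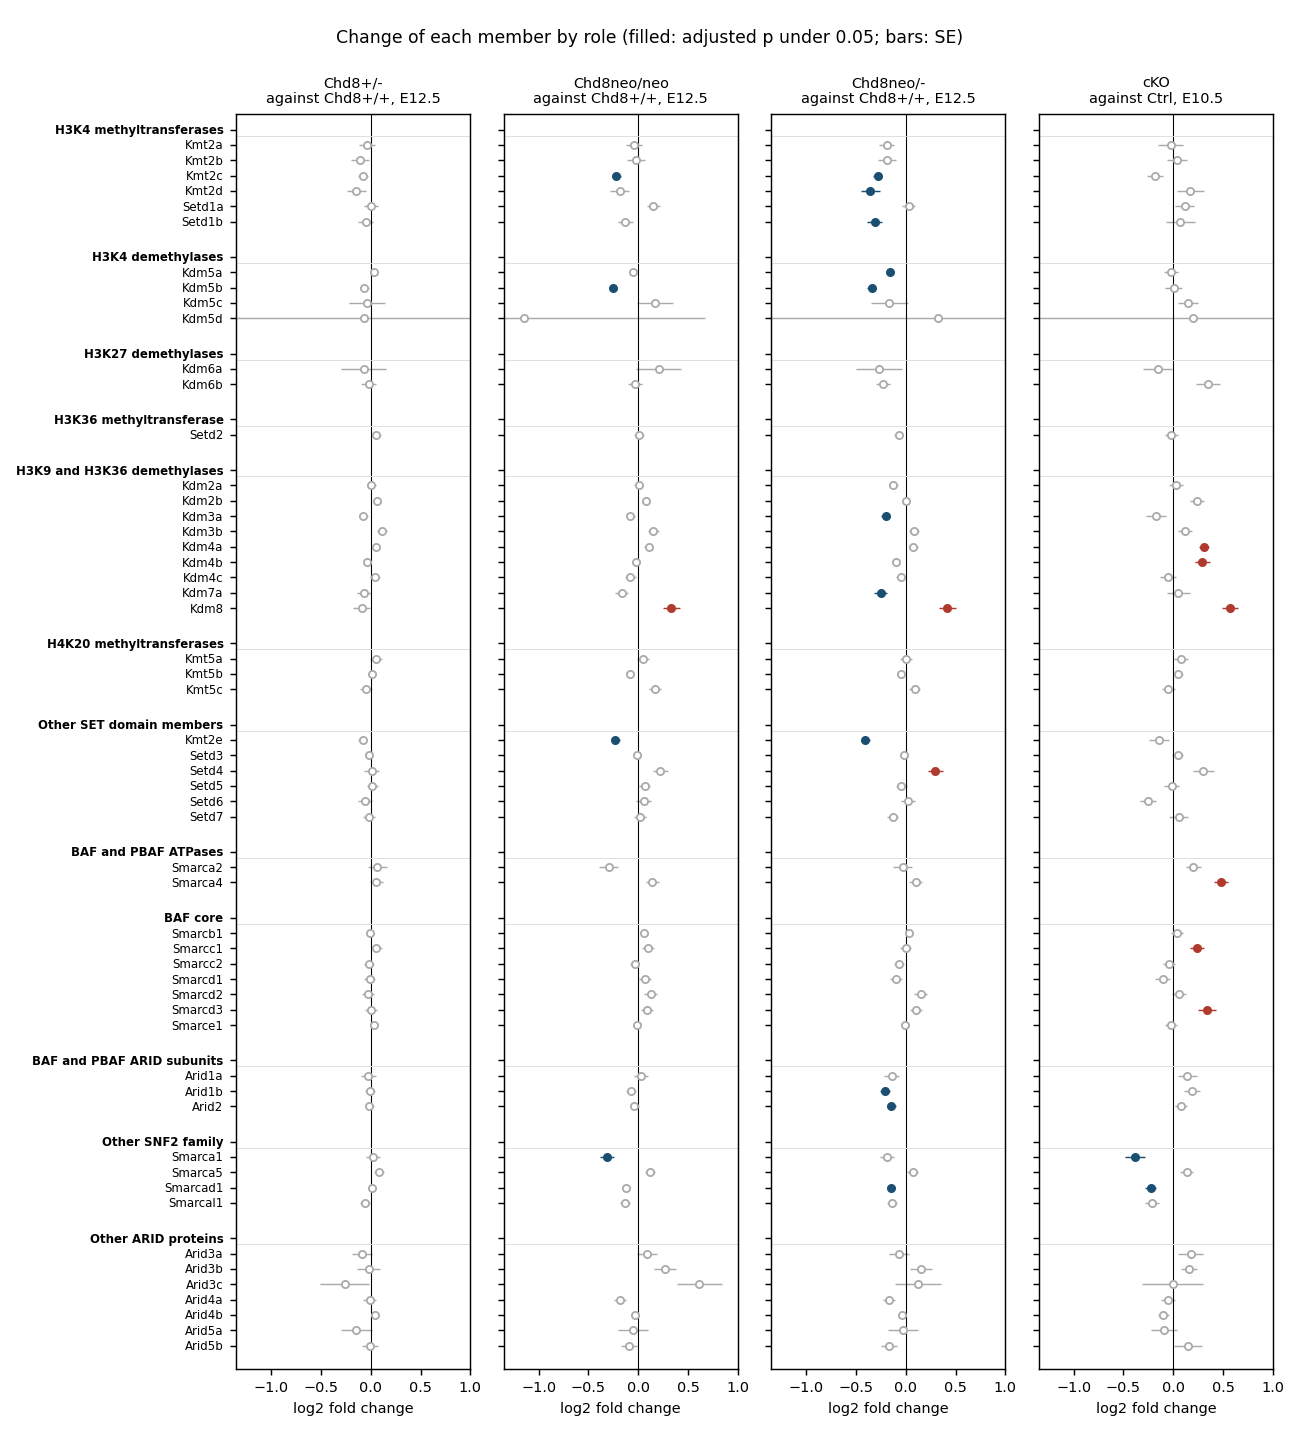
Log2 fold change (x axis) with its SE for each of the 54 members (rows, grouped by role) in Chd8+/-, Chd8neo/neo and Chd8neo/- against Chd8+/+ at E12.5 and in cKO against Ctrl at E10.5. Filled points passed an adjusted p of 0.05 (red higher, blue lower): 0 in Chd8+/-, 5 in Chd8neo/neo, 13 in Chd8neo/- and 8 in cKO, and bars of Kdm5d run past the axes.

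In Chd8neo/- cortex 2 members rose and 11 fell, against 5.48% of all genes called higher and 5.99% called lower. Members called lower made up 20.4% of the 54, and the median log2 fold change was -0.07 for members and 0.00 for all genes. The members that fell were H3K4 methyltransferases and demethylases, 2 of the 3 ARID subunits of BAF and PBAF (Arid1b and Arid2), the demethylases Kdm3a and Kdm7a, Kmt2e and Smarcad1. No subunit of the BAF core and neither BAF ATPase passed the test. In the same libraries the embryonic globin Hbb-bh1 had a log2 fold change of 1.61 ± 0.41 (adjusted p = 0.0425), while Alas2 (0.67), Hbb-y (0.62), Hba-a1 (0.21) and Hba-a2 (-0.84), also of red blood cells, did not pass. The 9 neuronal markers had a median of -0.14 with 2 called lower, and their part was not tested.

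Of the 6 H3K4 methyltransferases, 3 fell and the median log2 fold change was -0.24. Kmt2c, with the GC-rich promoter shown above, was at 184, 179 and 188 CPM in Chd8+/+ and at 154, 155 and 143 CPM in Chd8neo/- (-0.28 ± 0.05, adjusted p = 0.00191). Its paralogue Kmt2d (MLL4) was at 236, 177 and 230 CPM in Chd8+/+ and at 175, 177 and 151 CPM in Chd8neo/- (-0.36 ± 0.10, adjusted p = 0.0393). For Kmt2c the groups did not overlap, while Chd8+/+ replicate 2 was level with Chd8neo/- libraries for Kmt2d. Setd1b, catalytic subunit of a COMPASS complex that acts at promoters, was at 119, 100 and 129 CPM in Chd8+/+ and at 92.8, 100 and 87.5 CPM in Chd8neo/- (-0.31 ± 0.08, adjusted p = 0.0203), again with overlap. Kmt2a (-0.19) and Kmt2b (-0.19), the MLL1 and MLL2 enzymes, and Setd1a (0.03) did not pass. In an annotation release other than the one counted, Setd1a shares 51.9% of its exon bases with an overlapping gene, so its value is uncertain.

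Of the 4 H3K4 demethylases, Kdm5b and Kdm5a fell. Kdm5b was at 231, 226 and 242 CPM in Chd8+/+ and at 175, 187 and 189 CPM in Chd8neo/- (-0.34 ± 0.04, adjusted p = 0.000228). Kdm5a (RBP2), its widely expressed paralogue, was at 117, 124 and 121 CPM in Chd8+/+ and at 107, 108 and 110 CPM in Chd8neo/- (-0.15 ± 0.04, adjusted p = 0.0181). Neither gene's groups overlapped. The sex-linked Kdm5c and Kdm5d are described with the sex chromosomes.

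Among the 6 other SET domain members 1 rose and 1 fell. Kmt2e had the smallest adjusted p of all members, at 237, 221 and 245 CPM in Chd8+/+ and 173, 186 and 171 CPM in Chd8neo/- (-0.41 ± 0.05, adjusted p = 0.000128). All 3 Chd8neo/- libraries were below all Chd8+/+ libraries, and the gene was called in all 24 alternative fits. Kmt2e shares 9.31% of its exon bases with Srpk2 on the other strand, and the counts at E12.5 did not use strand. Setd4 was at 9.51, 8.49 and 8.38 CPM in Chd8+/+ and at 11.7, 10.6 and 10.2 CPM in Chd8neo/- (0.30 ± 0.08, adjusted p = 0.0233), without overlap.

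Of the 9 demethylases assigned to H3K9 and H3K36, Kdm8 rose and Kdm3a and Kdm7a fell. Kdm8, whose promoter window has the lowest GC content of the 4 shown, was at 11.04, 10.3 and 10.3 CPM in Chd8+/+ and at 14.9, 13.3 and 14.2 CPM in Chd8neo/- (0.42 ± 0.09, adjusted p = 0.00758). Kdm3a, which removes H3K9 mono- and dimethylation, was at 215, 201 and 198 CPM in Chd8+/+ and at 171, 186 and 177 CPM in Chd8neo/- (-0.20 ± 0.04, adjusted p = 0.0112). Kdm7a, which removes H3K9 and H3K27 dimethylation, was at 93.1, 85.2 and 87.3 CPM in Chd8+/+ and at 71.2, 76.3 and 75.5 CPM in Chd8neo/- (-0.25 ± 0.07, adjusted p = 0.0306). In all 3 genes the groups were fully apart. The other 6 ran from -0.13 (Kdm2a) to 0.08 (Kdm3b) and did not pass. In the annotation used for overlaps, Kdm3b shares 24.6% of its 14095 exon bases with a non-coding gene on the other strand. Its exon length in the count tables is 7112 bp, so whether the shared bases were counted is not known.

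Of the members that are SWI/SNF subunits, Arid1b and Arid2 fell. Arid1b (BAF250B), a BAF subunit and one of the genes most often mutated in intellectual disability, was at 114, 115 and 124 CPM in Chd8+/+ and at 97.7, 110 and 98.8 CPM in Chd8neo/- (-0.21 ± 0.05, adjusted p = 0.0173). Arid2 (BAF200), which defines PBAF, was at 254, 246 and 261 CPM in Chd8+/+ and at 230, 230 and 229 CPM in Chd8neo/- (-0.14 ± 0.04, adjusted p = 0.0385). Their groups did not overlap. Arid1a, the alternative BAF subunit, had a log2 fold change of -0.14 and did not pass. Smarcad1, an SNF2-type remodeller outside SWI/SNF that acts in DNA end resection and heterochromatin upkeep, was at 196, 198 and 203 CPM in Chd8+/+ and at 180, 176 and 182 CPM in Chd8neo/- (-0.15 ± 0.04, adjusted p = 0.0251), without overlap. The BAF core spanned -0.10 (Smarcd1) to 0.15 (Smarcd2), the ATPases -0.03 (Smarca2) and 0.10 (Smarca4), the H4K20 methyltransferases -0.04 (Kmt5b) to 0.09 (Kmt5c) and the H3K36 methyltransferase Setd2 was at -0.07, none of them called.

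Kmt2e, Kdm5b, Kmt2c and Kdm8 were called in Chd8neo/- whichever of the 6 libraries was left out. Of these 6 fits Kdm3a was called in 5, Arid1b in 3, Kdm5a, Setd1b and Setd4 in 2 each, Kmt2d, Kdm7a and Smarcad1 in 1 each and Arid2 in 0. The count of members called lower was 3 without Chd8neo/- replicate 1, 4 without Chd8+/+ replicate 3, 5 without Chd8neo/- replicate 3 and 6 without Chd8neo/- replicate 2. In that order 531, 613, 655 and 535 of all genes were called lower, against 1127 with every library. The count of members called higher was 1, Kdm8, without Chd8+/+ replicate 2 or 3 or without Chd8neo/- replicate 1 or 2. With the libraries of male embryos alone, chosen after seeing the data because every Chd8neo/- library came from a male, 1 member was called higher (Kdm8) and 6 lower (Kdm3a, Kdm5b, Kdm5d, Kdm7a, Kmt2c and Kmt2e).

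**Figure D3:**
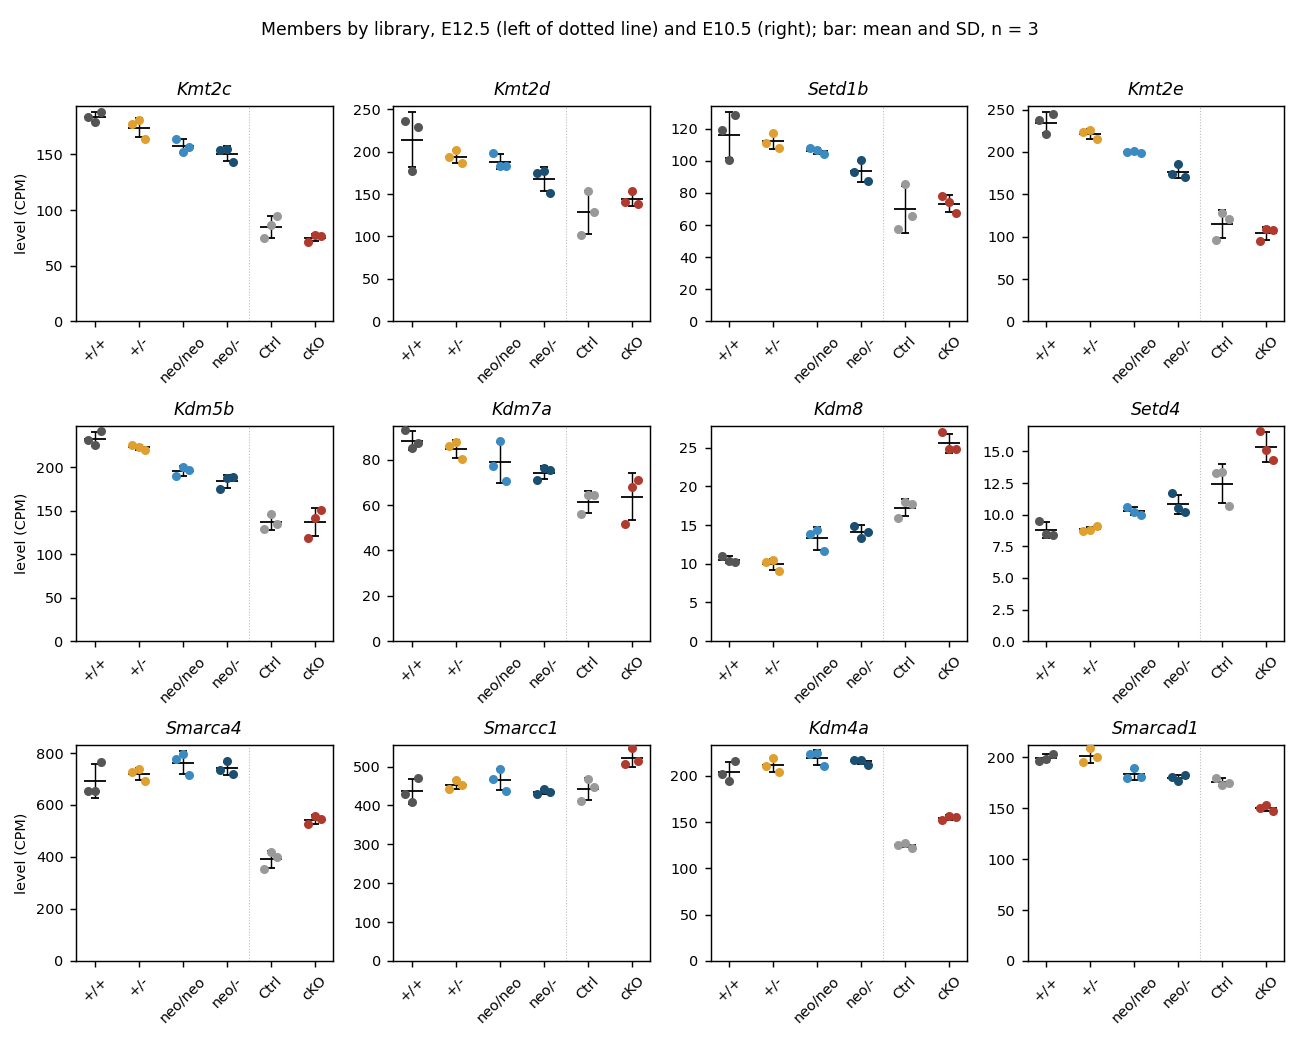
Level in CPM (y axis, from 0) of 12 members in every library of the 6 groups (points), with the mean and SD (bars, n = 3). Kmt2c, Kmt2e and Kdm5b step down from Chd8+/+ to Chd8neo/-, Kdm8 is higher in Chd8neo/neo, Chd8neo/- and cKO than in their controls, and Smarca4 and Kdm4a are higher in cKO than in Ctrl.

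Exon length moved with the Chd8neo/- result. The members' median exon length was 7805 bp against 3398 bp for all genes tested at E12.5, and 21 of the 54 had 10000 bp or more. Of the 11 members that fell, 10 were in that class, all but Kdm3a, and they made up 47.6% of the 21 long members. Of all 1103 genes of that length 23.8% were called lower, and their median log2 fold change was -0.11 against -0.14 for the long members. In the shortest class, under 2000 bp, 1.22% of all genes were called lower and the median was 0.07. In Chd8neo/neo 14.3% of the long members and 16.4% of all long genes were called lower. The part of exon length in these results was not tested beyond the refit that follows.

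With the trends in exon length and GC content removed, 2 members were called higher in Chd8neo/- (Kdm8 0.36, adjusted p = 0.0220, and Setd4 0.32, adjusted p = 0.0250) and 3 lower (Kmt2e -0.31, adjusted p = 0.00129, Kdm5b -0.20, adjusted p = 0.0194, and Kdm3a -0.18, adjusted p = 0.0356). The median of the members moved from -0.07 to -0.02. Over all genes 669 were called higher and 632 lower in that refit, against 1031 and 1127 as first fitted. The other 8 members that fell, Kmt2c, Kmt2d, Setd1b, Kdm5a, Kdm7a, Arid1b, Arid2 and Smarcad1, were no longer called.

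**Figure D4:**
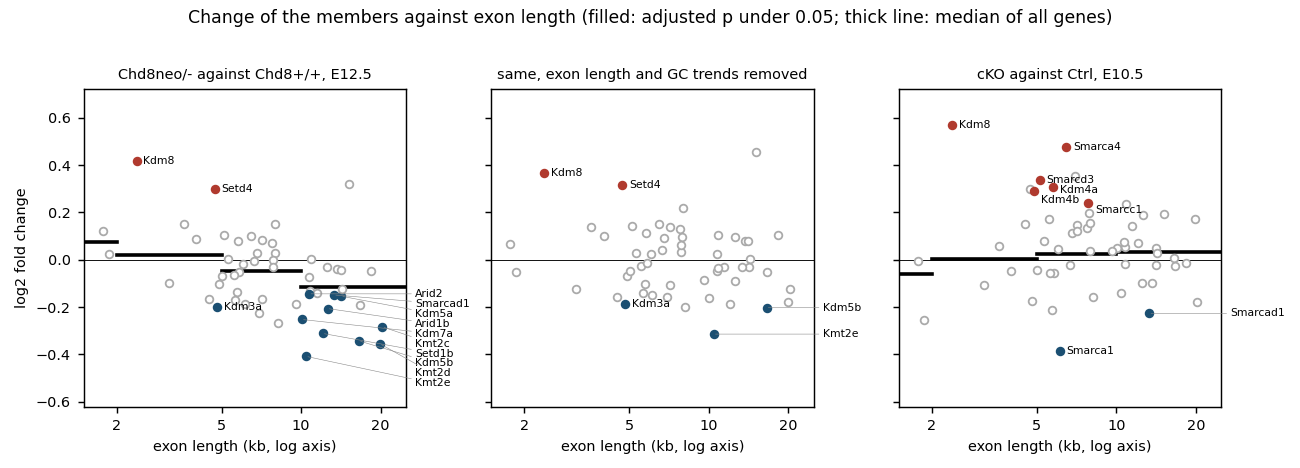
Log2 fold change (y axis) of the members against exon length (x axis, log scale) in Chd8neo/- as fitted, in Chd8neo/- with the exon length and GC trends removed, and in cKO; filled points passed an adjusted p of 0.05 and thick lines give the median of all genes per length class. In Chd8neo/- the blue points lie at 10 kb and above except Kdm3a, and 3 of them remain in the middle panel.

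Chd8neo/neo was also set against Chd8+/-, to ask how the hypomorph differs from the heterozygote. Of the members, 2 rose and 3 fell, against 2% of all genes called higher and 3.28% called lower. Kdm8 was at 10.2, 10.4 and 9.12 CPM in Chd8+/- against 13.8, 14.4 and 11.6 CPM in Chd8neo/neo (0.42 ± 0.09, adjusted p = 0.0214), and Arid3c at 0.756, 0.637 and 0.566 CPM against 1.28, 1.12 and 1.19 CPM (0.87 ± 0.23, adjusted p = 0.0453). Smarca1 was at 47.0, 54.8 and 47.5 CPM against 37.4, 39.4 and 41.6 CPM (-0.33 ± 0.07, adjusted p = 0.0255). All 3 of these pairs of groups were apart. Kdm5b was at 226, 223 and 220 CPM in Chd8+/- against 190, 201 and 197 CPM (-0.19 ± 0.04, adjusted p = 0.0267), and Smarca2 (Brm), the BAF ATPase more prominent in differentiated cells, at 85.8, 78.4 and 80.2 CPM against 59.2, 54.7 and 76.1 CPM (-0.36 ± 0.10, adjusted p = 0.0494), and these groups were apart too. A fit with replicate number as a block was also made, although the labels do not pair the libraries of these groups. In that fit Smarca2 was no longer called, and 2 members were higher and 2 lower. The counts over all genes went from 377 higher and 617 lower to 201 and 371. The split of all calls moved from 37.9% higher to 59.4% with exon length and GC trends removed, and with the block in the same fit 1 member was called higher and 0 lower. Without Chd8neo/neo replicate 1 or 2, or without Chd8+/- replicate 1, 0 members were called in either direction. Over all genes those fits called 26 higher and 34 lower, 10 and 13, and 15 and 47 in that order. Without Chd8+/- replicate 3 only 1 member was called, lower, with 80 and 228 of all genes. The count of members was 3 higher and 4 lower without Chd8neo/neo replicate 3 (715 and 1385 of all genes). It was 3 and 1 without Chd8+/- replicate 2 (179 and 511) and 3 and 3 without Chd8+/+ replicate 1 (427 and 664). Without Chd8+/+ replicate 2 it was 3 and 2 (454 and 599). It was 1 and 2 without Chd8+/+ replicate 3 (250 and 357) or Chd8neo/- replicate 1 (168 and 358).

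Between Chd8neo/- and Chd8neo/neo no member was called by edgeR's quasi-likelihood test or by DESeq2, where 0.0106% of all genes were called higher and 0.00532% lower. At an unadjusted p under 0.05 there were 14 members, 13 of them with lower values in Chd8neo/-, and 1585 of the 18810 genes tested. The median log2 fold change of the members was -0.08 against 0.00 for all genes. All Chd8neo/- libraries came from males, while the only male of Chd8neo/neo was replicate 3. With the summed level of the 3 Y-linked genes as a covariate, 2 members had an unadjusted p under 0.05. The lowest p belonged to Kmt2e, at 199, 201 and 199 CPM in Chd8neo/neo and 173, 186 and 171 CPM in Chd8neo/- (-0.18 ± 0.05, adjusted p = 0.413). Without Chd8neo/neo replicate 3, 1 member was called higher and 0 lower, with 14 and 9 of all genes.

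At E10.5 the conditional knockout gave another set. In cKO 6 members rose and 2 fell, against 5.75% of all genes called higher and 5.7% called lower. The median log2 fold change was 0.05 for members and 0.00 for all genes. The members that rose were 3 demethylases (Kdm8, Kdm4a and Kdm4b) and 3 SWI/SNF subunits (the ATPase Smarca4 and the core subunits Smarcc1 and Smarcd3), and those that fell were the SNF2-type remodellers Smarca1 and Smarcad1. None of the 6 H3K4 methyltransferases and none of the 4 H3K4 demethylases passed the test, with medians of 0.06 and 0.08. DESeq2 called 9 members higher and 3 lower, and 1449 higher and 1267 lower of all genes (edgeR 1060 and 1050). In the same pools the 6 mesenchymal and meningeal markers had a median log2 fold change of 0.32 with 2 called higher and the 5 markers of the ventral telencephalon one of -0.93 with 1 called lower, and their part was not tested.

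Kdm8 was at 15.96, 18.04 and 17.7 CPM in Ctrl and at 26.96, 24.8 and 24.9 CPM in cKO (0.57 ± 0.08, adjusted p = 0.00199). Smarca4 was at 354, 419 and 399 CPM in Ctrl and at 526, 559 and 547 CPM in cKO (0.48 ± 0.07, adjusted p = 0.00251). Kdm4a (Jmjd2a), which removes H3K9 and H3K36 trimethylation, was at 126, 127 and 122 CPM in Ctrl and at 152, 157 and 155 CPM in cKO (0.31 ± 0.05, adjusted p = 0.00488). Every cKO pool exceeded every Ctrl pool for these 3 genes, and they were called in each of the 6 leave-one-out fits and in all 16 alternatives.

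The 3 other members that rose rested on fewer fits. Kdm4b, a paralogue of Kdm4a, was at 51.8, 54.0 and 59.6 CPM in Ctrl and at 65.6, 63.2 and 73.7 CPM in cKO (0.29 ± 0.08, adjusted p = 0.0313). Smarcd3 was at 21.5, 18.1 and 17.98 CPM in Ctrl and at 23.03, 25.6 and 24.1 CPM in cKO (0.34 ± 0.09, adjusted p = 0.0349). Smarcc1 was at 412, 468 and 448 CPM in Ctrl and at 506, 547 and 513 CPM in cKO (0.24 ± 0.07, adjusted p = 0.0416). The groups were apart in each gene, and each call held in 1 of the 6 leave-one-out fits. Smarcd3 shares 48.2% of its exon bases with Chpf2 on the other strand, so its counts are uncertain.

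Smarcad1 was at 180, 173 and 174 CPM in Ctrl and at 150, 153 and 147 CPM in cKO (-0.23 ± 0.05, adjusted p = 0.0206). Smarca1 was at 38.2, 32.4 and 38.6 CPM in Ctrl and at 24.6, 28.5 and 30.5 CPM in cKO (-0.38 ± 0.10, adjusted p = 0.0275). In both, all cKO pools were below all Ctrl pools. Without Ctrl replicate 2, the male pool, 9 members were called higher and 4 lower. Over all genes that fit called 1330 higher and 1153 lower, against 1060 and 1050 with every pool. The counts of members were 4 higher and 3 lower without Ctrl replicate 1 (865 and 787 of all genes) and 4 and 0 without Ctrl replicate 3 (479 and 472). They were 3 and 1 without cKO replicate 1 (900 and 750) or 3 (420 and 406), and 3 and 0 without cKO replicate 2 (290 and 248). The median log2 fold change of all genes of 10000 bp or more was 0.03 at this stage, and removing the trends left Kdm8, Kdm4a, Smarca4 and Smarcc1 higher and Smarca1 lower, and added Setd6 and Smarcal1 as lower.

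Whether the change in Chd8neo/- at E12.5 differed from that in cKO at E10.5 was tested in 1 fit of all 18 libraries, added after seeing the data. The difference of the changes was called below 0 in 7 members and above 0 in none. Of all genes, 3.9% were called below and 2.89% above 0. At an unadjusted p under 0.05 there were 16 members and 4347 of the 19565 genes tested. DESeq2 called 10 members below 0 and 0 above 0, and 1193 and 667 of all genes (edgeR 763 and 566). The 7 were Kdm6b (-0.58 ± 0.14, adjusted p = 0.0243), Arid1b (-0.39 ± 0.09, adjusted p = 0.0117), Kdm4b (-0.39 ± 0.08, adjusted p = 0.00676), Smarca4 (-0.38 ± 0.09, adjusted p = 0.0230), Kdm5b (-0.35 ± 0.09, adjusted p = 0.0272), Kdm4a (-0.23 ± 0.06, adjusted p = 0.0331) and Arid2 (-0.22 ± 0.06, adjusted p = 0.0461). Kdm6b, which removes H3K27 trimethylation at developmental genes, had a log2 fold change of -0.23 in Chd8neo/- and 0.35 in cKO, neither called on its own by edgeR but both by DESeq2, and shares 4.11% of its exon bases with its antisense gene Kdm6bos. With the exon length and GC trends removed, Kdm4b alone was called (-0.29, adjusted p = 0.0477). Stage, batch, pooling and type of allele differ together between the arms and cannot be told apart.

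Of the 4 members on the sex chromosomes, Kdm5c, Kdm6a and Kdm5d followed the sex of the embryos. Kdm5c, an X-linked H3K4 demethylase that escapes X inactivation, stood at 184, 182 and 262 CPM in Chd8+/+. Its levels were 233, 195 and 184 CPM in Chd8+/- libraries, 264, 262 and 180 CPM in Chd8neo/neo and 189, 191 and 180 CPM in Chd8neo/-. Kdm6a (Utx), an X-linked H3K27 demethylase that also escapes, was at 70.1, 65.5 and 101 CPM, 89.9, 68.0 and 68.2 CPM, 105, 105 and 64.2 CPM and 64.0, 67.2 and 65.7 CPM in the same order. In both genes the 4 highest values were those of the 4 female libraries. At E10.5 Kdm5c was at 223, 186 and 257 CPM in Ctrl and 251, 240 and 247 CPM in cKO, and Kdm6a at 110, 77.9 and 120 CPM in Ctrl and 94.0, 88.2 and 94.0 CPM in cKO. The lowest Ctrl pool of both was the male one.

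Kdm5d, the Y-linked copy of Kdm5c, stood at 97.1, 98.7 and 0.872 CPM in the Chd8+/+ libraries, at 1.12, 91.3 and 94.9 CPM in the heterozygotes, at 0.945, 0.628 and 86.8 CPM in Chd8neo/neo and 83.4, 81.1 and 80.9 CPM in Chd8neo/-. At E10.5 it was at 0.650, 80.0 and 0.948 CPM in Ctrl and 23.5, 41.97 and 27.5 CPM in cKO, so the cKO pools held both sexes. Over all libraries its log2 fold change in Chd8neo/- was 0.32 ± 1.77, and among male libraries alone it was -0.25 (adjusted p = 0.0129), as the 3 Chd8neo/- values lay below both male Chd8+/+ values. Smarca1 values of the 4 female libraries at E12.5 (37.4 to 49.8 CPM) overlapped those of the 8 male libraries (40.3 to 54.8 CPM), and none of the other 3 sex-linked members was called in any of the 6 comparisons over all libraries.

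**Figure D5:**
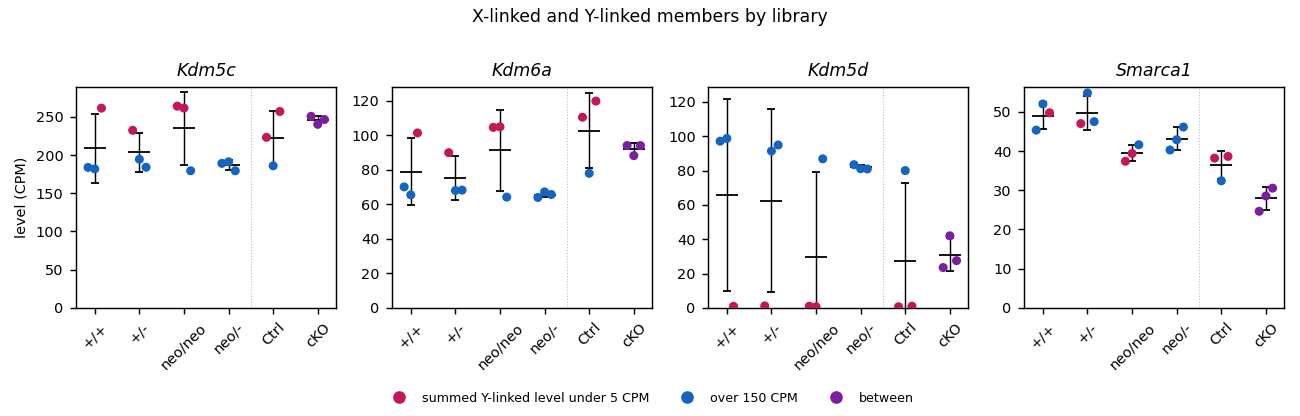
Level in CPM (y axis, from 0) of the 4 members on the X or Y chromosome in every library, coloured by the summed level of Ddx3y, Eif2s3y and Uty, with the mean and SD of each group (n = 3). Kdm5c and Kdm6a are higher and Kdm5d near 0 where that sum is under 5 CPM, and the Smarca1 values of both kinds of library overlap.

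The 17 members associated with autism, a list drawn from general knowledge, came from several roles. In Chd8neo/- 6 of them fell (Kmt2e, Kdm5b, Kmt2c, Arid1b, Setd1b and Arid2) and none rose, with a median of -0.16. Of all genes, 5.99% were called lower and 5.48% higher there. In Chd8neo/neo 3 fell (Kdm5b, Kmt2e and Kmt2c) and none rose, with a median of -0.04, against 4.45% of all genes called lower and 3.71% higher. In Chd8+/- none was called, with a median of -0.02. In cKO Smarca4 rose and none fell, with a median of 0.05, against 5.75% of all genes called higher and 5.7% lower. All 6 that fell in Chd8neo/- have exons of 10000 bp or more, a class of which 23.8% of all genes were called lower. With the exon length and GC trends removed, Kmt2e and Kdm5b were still called in Chd8neo/- and none of the 3 in Chd8neo/neo.

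Genes of the same pathways outside the name families were counted in the same fits, where 3.71% of all genes were called higher and 4.45% lower in Chd8neo/neo, 5.48% and 5.99% in Chd8neo/-, and 5.75% and 5.7% in cKO. Of the 18 other BAF and PBAF subunits, 2 fell in Chd8neo/neo (Dpf3 -0.74 and Bicral -0.24), 4 fell in Chd8neo/- (Dpf3 -0.83, Bcl7b -0.24, Bicral -0.22 and Pbrm1, the PBAF bromodomain subunit, -0.19) and none rose in either. Dpf3 is the PHD finger subunit of neuronal BAF. In cKO 17 of them were tested, Bcl7c rose (0.22) and Bcl7b (-0.33) and Brd9 (-0.42), a subunit of the non-canonical BAF complex, fell. Of 11 COMPASS partner subunits tested, which scaffold the H3K4 methyltransferases, Wdr5 (0.14), Paxip1 (0.16) and Men1 (0.18) rose in Chd8neo/neo and Men1 (0.15) in Chd8neo/-, while Psip1 (-0.23) fell in cKO.

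Of 15 other lysine methyltransferases none passed in Chd8neo/neo and 4 fell in Chd8neo/-, where 5.99% of all genes were called lower, namely Ash1l (-0.27), an H3K36 enzyme, Nsd1 (-0.23), also an H3K36 enzyme, Prdm2 (-0.19) and Smyd5 (-0.28). In cKO the H3K9 enzyme Ehmt2 (G9a) rose (0.21). Of 7 other lysine demethylases none passed in either hypomorph, and Hr rose in cKO (0.64).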

How the data were processed

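Raw counts per gene were deposited by the authors in 1 table for each stage, with both sequencing runs of a library in separate columns. Per the submitters' processing notes, the file headers and the study's methods, reads were checked with FastQC 0.11.2, trimmed with Trim Galore 0.4.1, aligned to GRCm38.p4 with TopHat2 2.1.0 and counted with featureCounts 1.5.0. The E12.5 header names fragments, Ensembl genes and no strand option although the libraries are stranded, and the options at E10.5 are not given in the sources used here. All shares of exon bases that overlap another gene come from a GENCODE release other than the annotation counted.

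Runs were summed. All genes kept by edgeR's filterByExpr were fitted with edgeR 4.0.16 (R 4.3.3; TMM factors, robust quasi-likelihood F test, group as the only term), the 12 libraries at E12.5 in 1 fit and the 6 at E10.5 in another, and p-values were Benjamini-Hochberg adjusted over all genes tested. Levels are CPM after TMM. The members and lists were chosen with earlier results of these data known. Named with every library are called members whose groups do not overlap (up to 10 a comparison), those on X or Y, and those with a log2 fold change of at least 0.5 at an unadjusted p under 0.05.

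Alternatives were DESeq2 1.42.0, RLE and upper quartile factors, no filter, only the groups compared, the replicate number as a block, a Y-linked covariate, exon length and GC trends removed by per-library loess offsets (span 0.5), each run alone and each library left out. Added after seeing the data were the block with those offsets, male libraries alone, and the test between stages. Deviations of same-numbered libraries correlated at 0.108, 0.195 and 0.199 between Chd8+/- and Chd8neo/neo, and in no other comparison did all 3 exceed 0.1. The labels pair no libraries, so these low correlations are the only ground for the block. The fits were tested on simulated data in which 200 genes were changed by more than any called member was. That test gives no measure of calls at the sizes reported here. The list of erythroid markers is not reported here as a whole.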

Additional observations from a re-analysis of the deposited data

Results flagged for a closer look

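For 7 members the change in Chd8neo/- at E12.5 and the change in cKO at E10.5 differed by the test of the difference itself (edgeR's quasi-likelihood test, adjusted p under 0.05, in a fit of all 18 libraries). The difference of the log2 fold changes was -0.58 for Kdm6b, -0.39 for Arid1b, -0.39 for Kdm4b, -0.38 for Smarca4, -0.35 for Kdm5b, -0.23 for Kdm4a and -0.22 for Arid2. In Arid1b, Kdm4b, Kdm6b, Arid2 and Kdm5b the values were negative in Chd8neo/- (-0.21, -0.10, -0.23, -0.14 and -0.34) and positive in cKO (0.19, 0.29, 0.35, 0.08 and 0.01). Of these genes edgeR called only Arid1b, Arid2 and Kdm5b in Chd8neo/- and only Kdm4b in cKO. None of them was called in both, and Kdm5b was nearly unchanged in cKO. In Smarca4 and Kdm4a both were positive and larger in cKO (0.48 against 0.10, and 0.31 against 0.08). Groups of 3 libraries are too small for a check of single libraries that stand apart. With the exon length and GC trends removed, Kdm4b alone of the 7 was still called.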

How the results depend on the processing

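Leaving out 1 library at a time, members called higher and lower ranged from 0 to 0 and 0 to 0 in Chd8+/-, 0 to 4 and 2 to 6 in Chd8neo/neo, 1 to 2 and 3 to 12 in Chd8neo/-, 0 to 3 and 0 to 4 in Chd8neo/neo against Chd8+/-, 0 to 1 and 0 to 0 in Chd8neo/- against Chd8neo/neo, and 3 to 9 and 0 to 4 in cKO. Over all genes the calls moved too. They ranged from 196 to 999 higher and 239 to 1606 lower in Chd8neo/neo, and 480 to 1132 and 531 to 1442 in Chd8neo/-. In Chd8neo/neo against Chd8+/- the ranges were 10 to 715 and 13 to 1385, and in cKO 290 to 1330 and 248 to 1153. Where a group kept 1 library, that library was assumed to vary like the other groups. Counts in the form higher/lower follow for settings that moved them. With exon length and GC trends removed they were 3/0 in Chd8neo/neo, 2/3 in Chd8neo/-, 1/0 in Chd8neo/neo against Chd8+/-, 4/3 in cKO and 0/1 in the difference between stages. With the replicate block and those trends removed together they were 0/1, 2/2, 1/0 and 6/4 in the first 4 of these. The replicate block alone gave 1/4, 2/10, 2/2 and 9/3, and outside Chd8neo/neo against Chd8+/- the same-numbered libraries did not deviate together in all 3 pairs (correlations from -0.268 to 0.114). With male libraries alone they were 0/0, 1/6 and 0/0 at E12.5, and Kdm5d in Chd8neo/- turned from 0.32 to -0.25; the cause was not tested, except that the female Chd8+/+ library at 0.872 CPM is left out there. Only the compared groups gave 0/3 in Chd8neo/neo and 0/0 against Chd8+/-, the Y-linked covariate 0/4 and 0/1, sequencing run 1 alone 0/4, 1/10 and 0/2 for Chd8neo/neo, Chd8neo/- and Chd8neo/neo against Chd8+/-, and run 2 alone 2/7 in Chd8neo/-. DESeq2 gave 2/6 in Chd8neo/neo against Chd8+/-. Over all genes, DESeq2 called 979 higher and 1306 lower in Chd8neo/neo (edgeR 697 and 837), 611 and 1177 in Chd8neo/neo against Chd8+/- (edgeR 377 and 617), 18 and 9 in Chd8neo/- against Chd8neo/neo (edgeR 2 and 1) and 9 and 6 in Chd8+/- (edgeR 3 and 1). Of 1198 values of single members under other settings, 995 stayed on the same side of the threshold. Some of these changed sign without being called in either fit. Kdm6a in Chd8+/-, for example, went from -0.07 to 0.01 with male libraries alone. Another 199 kept direction and lost the call, and 3 kept direction and gained it. The remaining 1, Kdm5d in Chd8neo/-, changed sign and was called in 1 of the fits.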
